A study of Mus musculus with 8 samples.

Results

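The genes described here encode the proteins of the cytosolic ribosome, which translates nuclear mRNAs, and of the mitochondrial ribosome, which translates the mRNAs of the mitochondrial genome. They were chosen by symbol. The cytosolic set held symbols starting with Rpl or Rps and a digit, plus Rpsa, Rplp0, Rplp1 and Rplp2, without the Rps6k kinases and without names containing -ps. The mitochondrial set held symbols starting with Mrpl or Mrps and digits. Of 15948 genes listed for mouse kidney, 166 met the rule, 88 cytosolic and 78 mitochondrial. The cytosolic set comprised 31 proteins of the small 40S subunit, 46 of the large 60S subunit, 8 paralogs or retrogenes, the retrocopies Rps3a2 and Rps3a3, and Rps19bp1, which is not a ribosomal protein. The mitochondrial set comprised 26 proteins of the small 28S subunit, 51 of the large 39S subunit, and Mrps36, now known as the subunit Kgd4 of the 2-oxoglutarate dehydrogenase complex and not as part of the ribosome.

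Poly(A) RNA of whole kidney was sequenced in 3 samples labelled Arhgef11Sglt2_DOCA and 5 samples labelled Sglt2Cre_DOCA. Arhgef11 encodes a guanine nucleotide exchange factor for the small GTPase RhoA, and Sglt2, encoded by Slc5a2, takes up glucose in the first part of the proximal tubule. Its promoter drives the Cre recombinase that the name Sglt2Cre denotes. DOCA is taken here as deoxycorticosterone acetate, a mineralocorticoid used to raise blood pressure. The series concerns a knockout of Arhgef11 limited to the proximal tubule. Both groups carry DOCA in their label, so the Sglt2Cre kidneys were treated too, and no untreated kidney is compared here. Strain, age, dose and duration are not given in the labels used here, and they do not tie samples to separate animals, so p-values measure only the spread between these samples, which may be technical. The extraction protocol speaks of kidneys from Studies 2 and 3, and the labels do not say which sample belongs to which, so no values within a study can be given.

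The large subunit of the cytosolic ribosome holds the P stalk, the L1 stalk and the 5S particle. Ribosomal proteins of the cytosol are made in near-equal amounts, and most join ribosomal RNA in the nucleolus. Their mRNAs begin with a run of pyrimidines, the TOP motif, through which mTORC1 controls how much of each mRNA is translated. All proteins of the mitochondrial ribosome are encoded in the nucleus and imported. They serve a tissue in which proximal tubule cells, packed with mitochondria, fuel sodium and glucose reabsorption by respiration, and the mitochondrial ribosome makes core subunits of the respiratory chain.

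RefSeq promoter windows, from 250 bases before to 50 bases after the annotated start (GRCm38.p6), were matched by symbol for 134 of the 166 members, 65 cytosolic and 69 mitochondrial, and for 11820 listed genes in all. The windows below run from 50 bases before to 30 bases after the start, 5′ to 3′, and show the motifs whose shares are given below. Capitals mark the pyrimidine string CTTTCC on the sense strand, and, on either strand, AAGATGGC, the core of the recognition sequence of the transcription factor YY1, and CCGGAAG, that of the ETS family, which includes GABP. Windows on a single chromosome were left out before the members below were chosen. The cytosolic members shown are the 3 most abundant by count of those remaining with CTTTCC in the window.
Rpl4 (chr9:64173337-64173416, plus strand): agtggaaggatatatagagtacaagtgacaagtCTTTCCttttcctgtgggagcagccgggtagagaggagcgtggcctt
Rpl13a (chr7:45128716-45128795, minus strand): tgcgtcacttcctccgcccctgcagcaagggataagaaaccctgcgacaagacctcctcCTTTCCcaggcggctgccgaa
Rps10 (chr17:27635215-27635294, minus strand): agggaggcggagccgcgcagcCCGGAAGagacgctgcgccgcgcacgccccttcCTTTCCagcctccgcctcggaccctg
The mitochondrial members shown are those with the smallest p among members with AAGATGGC or CCGGAAG, 2 for each.
Mrpl49 (chr19:6057726-6057805, minus strand): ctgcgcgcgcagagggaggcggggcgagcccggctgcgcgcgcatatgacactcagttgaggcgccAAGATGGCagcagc
Mrps27 (chr13:99344736-99344815, plus strand): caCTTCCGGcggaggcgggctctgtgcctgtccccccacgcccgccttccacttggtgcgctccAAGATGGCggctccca
Mrps21 (chr3:95871485-95871564, minus strand): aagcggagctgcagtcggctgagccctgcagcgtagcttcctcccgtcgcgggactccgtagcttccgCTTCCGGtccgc
Mrpl34 (chr8:71464876-71464955, plus strand): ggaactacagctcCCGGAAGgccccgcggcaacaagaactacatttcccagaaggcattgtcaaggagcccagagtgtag

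Within 50 bases on either side of the start, CTTTCC stood on the sense strand of 20 of 65 cytosolic promoters (30.8%), 5 of 69 mitochondrial promoters (7.2%) and 605 of 11820 promoters in all (5.1%). On the antisense strand the shares were 3.1%, 2.9% and 5.0%. CCGGAAG, searched on both strands of the whole window, was in 38.5% of cytosolic, 37.7% of mitochondrial and 17.7% of all promoters. AAGATGGC, searched likewise, was in 9.2% of cytosolic, 17.4% of mitochondrial and 4.6% of all promoters. The core recognised by Nrf1, GCGC repeated after any pair of bases, was in 12.3% of cytosolic, 20.3% of mitochondrial and 13.3% of all promoters. Matches of different motifs shared a base in 1 member, Rpl7l1, and a match describes the sequence only.

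Cytosolic ribosomal protein transcripts made up 1.71%, 1.6% and 1.67% of normalized counts in Arhgef11Sglt2 replicates 1 to 3, against 1.5%, 1.8%, 1.5%, 1.43% and 1.37% in Sglt2Cre replicates 1 to 5. Mitochondrial ribosomal protein transcripts made up 0.263%, 0.232% and 0.227% in the Arhgef11Sglt2 libraries, against 0.254%, 0.291%, 0.260%, 0.245% and 0.239% in the Sglt2Cre libraries. The groups overlapped in both shares, and Sglt2Cre replicate 2 was the highest of the 8 libraries in each. In whole kidney, fewer cells of a type and less RNA per cell cannot be told apart.

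The ratio of the summed counts of the sets did separate the groups. The cytosolic sum was 6.51, 6.89 and 7.34 times the mitochondrial sum in the Arhgef11Sglt2 libraries, against 5.93, 6.18, 5.75, 5.85 and 5.75 times in the Sglt2Cre libraries. The means were 6.91 ± 0.415 (SD, n = 3) in the Arhgef11Sglt2 group and 5.89 ± 0.178 (SD, n = 5) in the Sglt2Cre group, a fold of 1.17. Every Arhgef11Sglt2 library lay above every Sglt2Cre library. It follows that the same order held within each range of the numbers in the library names, which adds no further check. At the lower numbers the ratios were 6.51 and 6.89 in the Arhgef11Sglt2 group against 5.93, 6.18 and 5.75 in the Sglt2Cre group. At the higher numbers they were 7.34 against 5.85 and 5.75. As the members were chosen with earlier results of these data known, no p is given for the ratio.

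**Figure D1:**
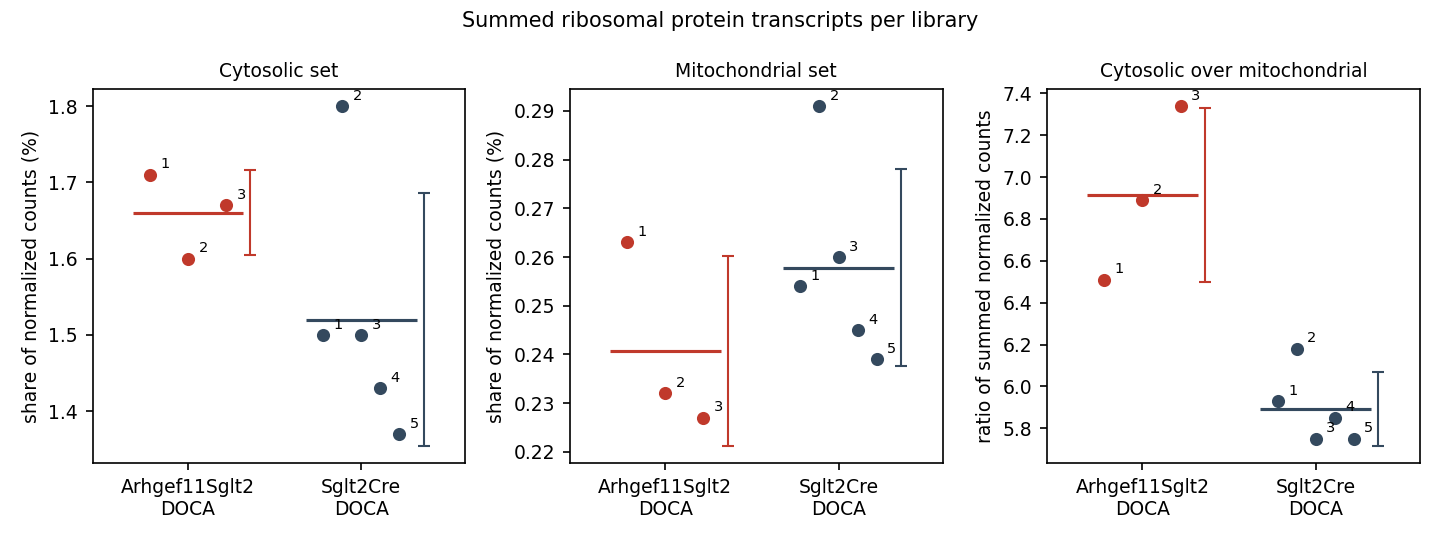
Share of normalized counts (%) taken by cytosolic and by mitochondrial ribosomal protein transcripts, and the ratio of their sums, for each library. Points are libraries with their replicate number, horizontal lines are group means and bars are 1 SD. The shares overlap between groups, while the ratio is 6.51 to 7.34 in the Arhgef11Sglt2 libraries and 5.75 to 6.18 in the Sglt2Cre libraries.

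Estimated depth was 57.9, 51.3 and 54.0 (in units of 1e+06 reads) in the Arhgef11Sglt2 libraries, against 43.3, 45.9, 59.5, 33.1 and 33.7 in the Sglt2Cre libraries. Sglt2Cre replicates 4 and 5, the shallowest, also had the lowest cytosolic shares. These depths were read from the spacing of low values, of which 31.7% to 55.4% fell within 0.02 of a whole read, and are approximate. The part of depth in the shares was not tested. Whole-gene Arhgef11 counts were 2935, 3919 and 3905 in the Arhgef11Sglt2 libraries and 3479 to 3928 in the Sglt2Cre libraries, so they did not check the labels, and groups are given as labelled.

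Compared per kilobase of transcript, the median cytosolic gene had 9156 normalized counts per kb in the Arhgef11Sglt2 group and 8580 in the Sglt2Cre group. The median mitochondrial gene had 891.7 normalized counts per kb in the Arhgef11Sglt2 group and 976.4 in the Sglt2Cre group. Over all libraries the most abundant per kb were the stalk protein gene Rplp1 (24158), Rpl41, which encodes a very short basic peptide (23014), and Rps2, a protein of the mRNA entry channel (22308). Among mitochondrial members they were Mrpl42 (4884), Mrps21 (4419), Mrps6 (3936) and Mrpl12 (3469). The sums of 40S and 60S members stood at a ratio of 0.657 to 0.673 in the Arhgef11Sglt2 libraries and 0.659 to 0.679 in the Sglt2Cre libraries. The sums of 28S and 39S members stood at 0.467 to 0.496 in the Arhgef11Sglt2 libraries and 0.452 to 0.470 in the Sglt2Cre libraries, which overlapped as well.

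The sets differed in direction, by small amounts. In limma, on the deposited log2 scale and with Benjamini-Hochberg adjustment over all 15948 genes, 0 of 88 cytosolic and 0 of 78 mitochondrial members passed an adjusted p of 0.05, where 2.22% of all genes were called, 0.627% higher in the Arhgef11Sglt2 group and 1.59% lower. At an unadjusted p of 0.05, limma counted 3 cytosolic members higher and 0 lower, and 1 mitochondrial member higher and 12 lower. The background at that level was 21.1% of all genes, 9.04% higher and 12.1% lower. The 3 cytosolic members (3.41% of the set) were thus below the background share, and the 12 mitochondrial members (15.4% of the set) near it.

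The log2 difference (Arhgef11Sglt2 minus Sglt2Cre) was positive in 80 of 88 cytosolic members (90.9%), against 47.9% of all genes. It was negative in 61 of 78 mitochondrial members (78.2%), against 52.1% of all genes. The median difference was 0.09 in the cytosolic set (-0.07 to 0.33), -0.08 in the mitochondrial set (-0.49 to 0.31) and -0.01 over all genes (quartiles -0.11 and 0.09). Both medians lay within the quartiles of all genes or at their edge. The 95% interval of a single member reached a median of 0.21 to either side of its difference in the cytosolic set and 0.18 in the mitochondrial set, so differences of the size of the set medians were not detectable gene by gene with these libraries. Members of a set varied together between libraries, so they are not independent observations of the groups.

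**Figure D2:**
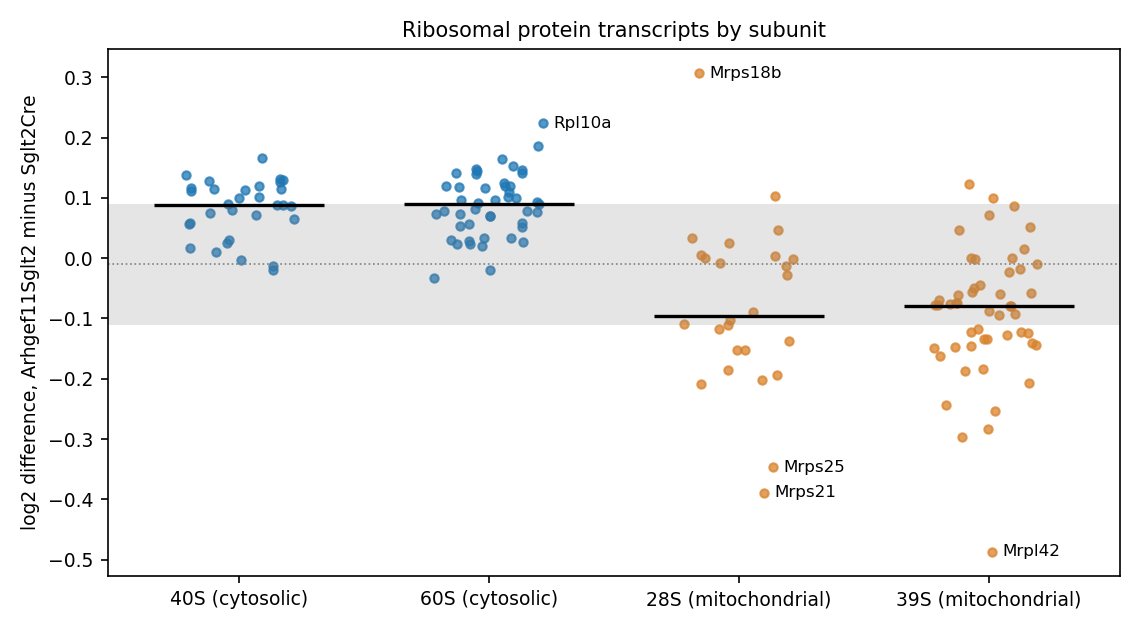
Log2 difference between Arhgef11Sglt2 and Sglt2Cre libraries for 40S, 60S, 28S and 39S members. Each point is 1 gene, black lines are medians, the grey band spans the quartiles of all listed genes (-0.11 to 0.09) and the dotted line their median (-0.01). Most cytosolic members lie between 0 and 0.2, and mitochondrial members spread more widely around medians of -0.10 (28S) and -0.08 (39S).

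The cytosolic median depended on which libraries were compared. Set against the Sglt2Cre mean of each gene, the median cytosolic member deviated by 0.080, 0.059 and 0.124 on the log2 scale in Arhgef11Sglt2 replicates 1 to 3. In Sglt2Cre replicates 1 to 5 it deviated by -0.008, 0.216, 0.014, -0.064 and -0.145. Sglt2Cre replicate 2 was thus above every Arhgef11Sglt2 library, with 84 of 88 members over the Sglt2Cre mean, and replicate 5 was lowest, with 2 of 88. The median difference was 0.144 without Sglt2Cre replicate 2 and 0.050 without replicate 5.

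The median mitochondrial member deviated by -0.036, -0.100 and -0.131 in Arhgef11Sglt2 replicates 1 to 3. In Sglt2Cre replicates 1 to 5 it deviated by -0.017, 0.104, 0.039, -0.035 and -0.099. Sglt2Cre replicate 5 was within the range of the Arhgef11Sglt2 libraries, and the median difference was -0.125 without Arhgef11Sglt2 replicate 1. The gap between the median deviations of the cytosolic and the mitochondrial set was 0.116, 0.159 and 0.255 in the Arhgef11Sglt2 libraries, against 0.009, 0.112, -0.026, -0.030 and -0.046 in the Sglt2Cre libraries. The gap did not overlap between groups, though Arhgef11Sglt2 replicate 1 (0.116) and Sglt2Cre replicate 2 (0.112) lay close together.

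**Figure D3:**
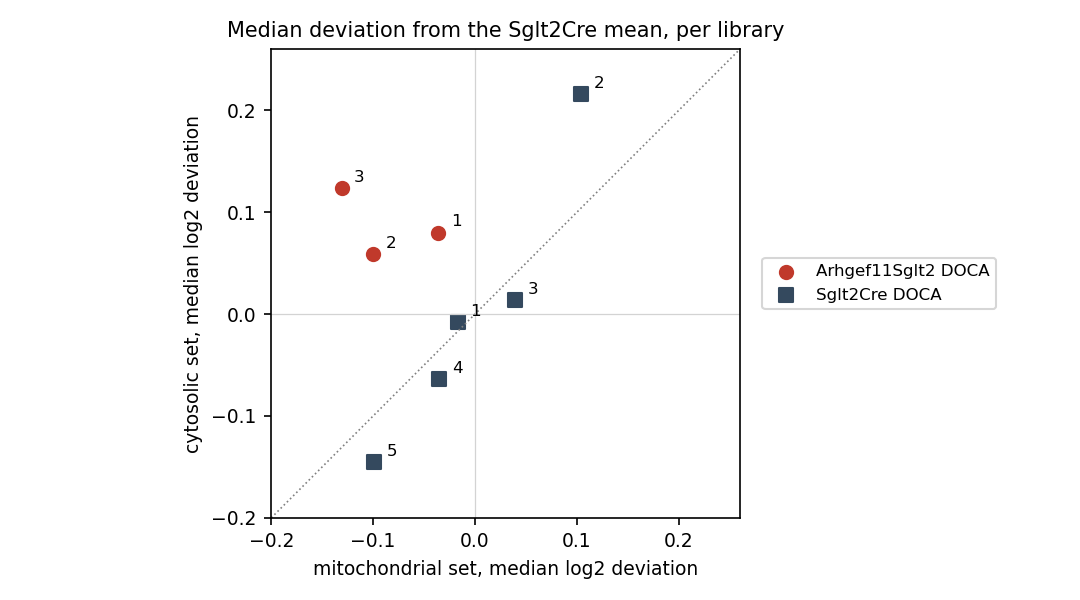
Median log2 deviation from the Sglt2Cre mean of the cytosolic set (vertical) against that of the mitochondrial set (horizontal), 1 point per library with its replicate number. The dotted line marks equal deviations. Sglt2Cre replicates 1, 3, 4 and 5 lie within 0.046 of that line and replicate 2 lies 0.112 above it, and the Arhgef11Sglt2 libraries lie 0.116 to 0.255 above it.

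Among 40S members, 28 of 31 had a positive difference, with a median of 0.09, and among 60S members 44 of 46 did, with the same median of 0.09. The 5 members of these subunits with a negative difference were Rpsa, Rps29, Rps4x, Rpl39 and Rpl13, the most negative being Rpl39 at -0.03, and those of Rpsa, Rps29, Rpl39 and Rpl13 turned positive when libraries were scaled to equal totals. Proteins with counterparts in bacteria and archaea (33 genes, median 0.11) and those found in eukaryotes without a bacterial counterpart (44 genes, median 0.08) differed by less than the quartile range of either. No overlap between groups was seen for 3 members (3.41%), all higher in the Arhgef11Sglt2 group, where 6.2% of all genes were. They were Rps4l, Rpl5 and Rps7.

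Rps4l (ENSMUSG00000063171), a paralog of the 40S protein gene Rps4x, had the largest difference of the set. It had 536.6, 505.7 and 833.6 normalized counts in Arhgef11Sglt2 libraries, against 490.0, 428.5, 363.4, 387.6 and 365.9 in Sglt2Cre libraries. Replicate 3 of the Arhgef11Sglt2 group was highest, and replicates 1 and 2 lay just above Sglt2Cre replicate 1. The group means were 625.3 ± 181.1 and 407.1 ± 53.22 (SD, n = 3 and n = 5), a fold of 1.54, with a log2 difference of 0.33 (SE 0.10, 95% interval 0.10 to 0.57, limma adjusted p = 0.116). Without Arhgef11Sglt2 replicate 3 the log2 difference was 0.20. Rps4x itself, with 14565 ± 727.6 normalized counts in the Arhgef11Sglt2 group and 14697 ± 2132 in the Sglt2Cre group, had a fold of 0.991.

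Rpl10a (ENSMUSG00000037805) encodes the protein of the L1 stalk, where tRNAs leave the ribosome. It had 4950, 4359 and 4843 normalized counts in Arhgef11Sglt2 libraries, against 4053, 3502, 4009, 4502 and 3781 in Sglt2Cre libraries. Arhgef11Sglt2 replicate 2 was below Sglt2Cre replicate 4, so the groups overlapped. The log2 difference was 0.22 (SE 0.08, 95% interval 0.04 to 0.41, limma adjusted p = 0.165). The row Rpl10a-ps1, outside the rule, held more counts, 6289 ± 220.1 in the Arhgef11Sglt2 group and 5514 ± 703.6 in the Sglt2Cre group (fold 1.14). Whether reads were split between these rows was not tested.

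Rpl5 (ENSMUSG00000058558) and Rpl11 bind the 5S RNA and, outside the ribosome, the p53 regulator Mdm2. Rpl5 had 5942, 6082 and 6327 normalized counts in Arhgef11Sglt2 libraries, against 5593, 5744, 5153, 5202 and 5560 in Sglt2Cre libraries. The groups did not overlap, at a fold of 1.12 (log2 difference 0.15, SE 0.06, 95% interval 0.01 to 0.30, limma adjusted p = 0.211). Rpl11, its partner, had 10034 ± 976.7 normalized counts in the Arhgef11Sglt2 group and 9375 ± 902.6 in the Sglt2Cre group (fold 1.07), and the groups overlapped.

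Rps7 had 7440, 7420 and 8041 normalized counts in Arhgef11Sglt2 libraries, against 7149, 7312, 7202, 6937 and 6166 in Sglt2Cre libraries (fold 1.1, limma adjusted p = 0.359). The gap between the groups was small, 7420 against 7312. Rpl36 had 4321 ± 574.0 normalized counts in the Arhgef11Sglt2 group and 3736 ± 480.8 in the Sglt2Cre group (log2 difference 0.19, limma adjusted p = 0.363), and the log2 difference was 0.10 without Arhgef11Sglt2 replicate 3.

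The P stalk recruits the GTPases that drive translation, and all 3 of its genes had a positive difference, with a median of 0.05. Rplp0, its base and the most abundant member by count, had 27515, 27849 and 29270 normalized counts in Arhgef11Sglt2 libraries, against 24816, 30360, 25231, 24463 and 23179 in Sglt2Cre libraries. Sglt2Cre replicate 2 exceeded every other library, and the Arhgef11Sglt2 libraries exceeded the other 4 Sglt2Cre libraries. Rplp1 (fold 1.04) and Rplp2 (fold 1.01) differed less, and their differences turned negative, to -0.03 each, with the replicate number as a block.

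Rpsa, the 40S protein also known as the laminin receptor, had 19572, 17776 and 19032 normalized counts in Arhgef11Sglt2 libraries, against 17816, 24528, 18035, 18130 and 17465 in Sglt2Cre libraries. Apart from Sglt2Cre replicate 2, all libraries lay within 17465 to 19572. Other members with defined roles overlapped between groups as well. The fold was 1.07 for Rps6, the substrate of S6 kinase, 1.08 for Rps19, which is mutated in Diamond-Blackfan anaemia in humans, 1.1 for Rpl3, next to the peptidyl transferase centre, and 1.09 for Rps27a, made as a fusion with ubiquitin. Rpl10, among the last proteins to join the 60S subunit, ranged from 2693 to 3080 in Arhgef11Sglt2 libraries and from 1852 to 4191 in Sglt2Cre libraries. The row Rpl10-ps3, outside the rule, held more, 15079 to 17146 in Arhgef11Sglt2 libraries and 14405 to 16217 in Sglt2Cre libraries. Whether reads were split between these rows was not tested.

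Paralog pairs were read with caution, because reads can be split between near-identical copies. Rps27 was listed at only 38.92 to 81.99 normalized counts in Arhgef11Sglt2 libraries and 20.00 to 170.1 in Sglt2Cre libraries. Its copy Rps27rt held 5484, 6006 and 6679 in Arhgef11Sglt2 libraries, against 5049, 6167, 5297, 5010 and 4732 in Sglt2Cre libraries (log2 difference 0.19, or 0.12 without Arhgef11Sglt2 replicate 3, limma adjusted p = 0.279). Rps27l, a p53 target in human cells, had the most negative difference of the cytosolic set among members with at least 100 normalized counts, -0.07 (2779 ± 223.4 in the Arhgef11Sglt2 group and 2956 ± 407.6 in the Sglt2Cre group, limma adjusted p = 0.740). Rpl36a (fold 1.02) and its copy Rpl36al (0.990), and Rpl22 (1.04) and its paralog Rpl22l1 (1.05), were near parity. A further 25 rows with -ps in the symbol, outside the rule, held counts equal to 8.56% to 8.89% of the cytosolic sum in Arhgef11Sglt2 libraries and 8.05% to 8.89% in Sglt2Cre libraries. Their median difference was 0.07.

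The mitochondrial set varied more from gene to gene. In the 39S subunit 42 of 51 members had a negative difference (median -0.08), and in the 28S subunit 18 of 26 did (median -0.10). Members with bacterial homologues (38 of 46 negative) and those specific to mitochondrial ribosomes (22 of 31 negative) had the same median of -0.08. Groups did not overlap for 9 members lower in the Arhgef11Sglt2 group (11.5% of the set, against 8.14% of all genes) and 2 higher (2.56%, against 6.2%). The lower ones were Mrpl42, Mrpl39, Mrpl16, Mrps21, Mrpl12, Mrpl49, Mrpl41, Mrpl20 and Mrpl58, and the higher ones Mrps18b and Mrpl14. At an adjusted p of 0.1 limma counted 5 members lower (6.41%, against 4.2% of all genes) and 1 higher (1.28%, against 2.31%).

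Mrpl42 (ENSMUSG00000062981), a protein specific to the mitochondrial large subunit, had the most negative difference and the highest level per kb of the set. It had 2917, 2603 and 1985 normalized counts in Arhgef11Sglt2 libraries, against 3548, 4676, 3559, 3265 and 3469 in Sglt2Cre libraries. All Arhgef11Sglt2 libraries were below all Sglt2Cre libraries, and Sglt2Cre replicate 2 was far above the rest. The means were 2502 ± 474.2 (SD, n = 3) in the Arhgef11Sglt2 group and 3703 ± 556.3 (SD, n = 5) in the Sglt2Cre group, a fold of 0.675, with a log2 difference of -0.49 (SE 0.13, 95% interval -0.77 to -0.21, limma adjusted p = 0.0753).

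Mrps21 (ENSMUSG00000054312), the homologue of bacterial S21, also had lower counts in every Arhgef11Sglt2 library. It had 1986, 1816 and 1391 normalized counts in Arhgef11Sglt2 libraries, against 2324, 2916, 2372, 2293 and 2153 in Sglt2Cre libraries. Arhgef11Sglt2 replicate 3 was lowest and Sglt2Cre replicate 2 highest. The log2 difference was -0.39 (SE 0.11, 95% interval -0.63 to -0.15, limma adjusted p = 0.0894).

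Mrpl12 (ENSMUSG00000039640), the L7/L12 stalk protein that recruits translation factors and also binds the mitochondrial RNA polymerase, had 4338, 3689 and 3840 normalized counts in Arhgef11Sglt2 libraries, against 4772, 5452, 5237, 4625 and 4567 in Sglt2Cre libraries. The groups did not overlap, at a fold of 0.802 (log2 difference -0.28, SE 0.08, 95% interval -0.46 to -0.10, limma adjusted p = 0.0955). Mrpl10, which anchors that stalk, had 2194 ± 90.66 in the Arhgef11Sglt2 group and 2341 ± 174.6 in the Sglt2Cre group (fold 0.937, limma adjusted p = 0.572).

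Mrpl39 had 1454, 1224 and 1203 normalized counts in Arhgef11Sglt2 libraries, against 1568, 1655, 1629, 1688 and 1609 in Sglt2Cre libraries (log2 difference -0.25, SE 0.07, limma adjusted p = 0.0777). Mrpl16, homologue of a bacterial protein near the peptidyl transferase centre, had 1075, 1179 and 1285 in Arhgef11Sglt2 libraries, against 1400, 1475, 1535, 1515 and 1477 in Sglt2Cre libraries (log2 difference -0.24, SE 0.06, limma adjusted p = 0.0788). In both genes the Sglt2Cre libraries kept to a narrow band, and Sglt2Cre replicate 2 did not stand apart. These 2 genes were chosen after their values were seen.

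**Figure D4:**
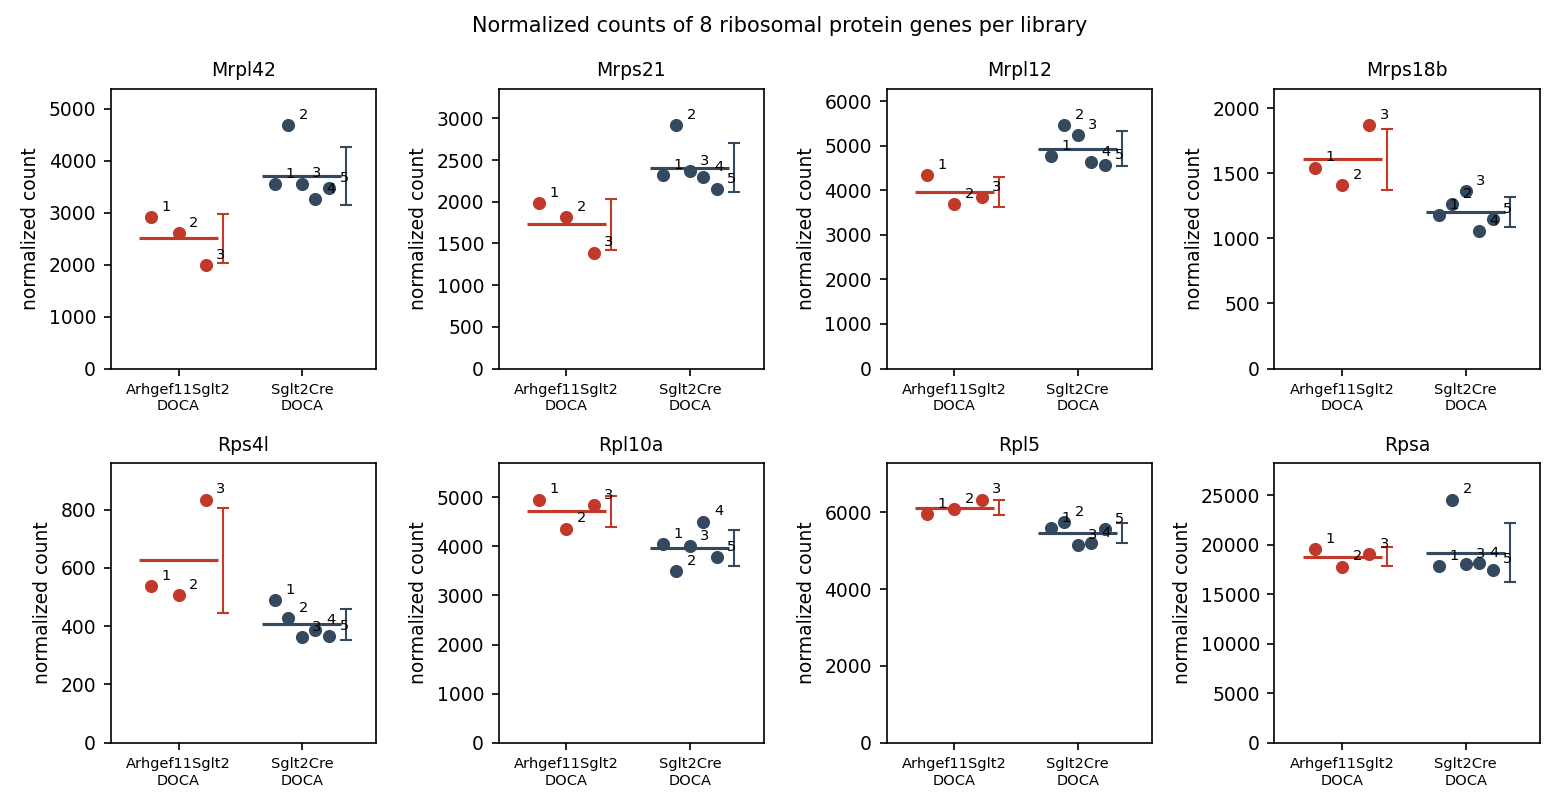
Normalized counts per library of 4 mitochondrial (top) and 4 cytosolic (bottom) ribosomal protein genes, from 0. Points carry replicate numbers, lines are group means and bars 1 SD. Mrpl42, Mrps21 and Mrpl12 are below every Sglt2Cre library in each Arhgef11Sglt2 library, Mrps18b, Rps4l and Rpl5 above, and Rpl10a and Rpsa overlap.

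Leaving out Arhgef11Sglt2 replicate 1 brought 6 of 78 mitochondrial members past an adjusted p of 0.05, all lower in the Arhgef11Sglt2 group, or 7.69% of the set. In that fit 8.36% of all genes were called (1334, against 354 with every library), and 4.74% were lower, so the members' share lay between these shares, near the background. The 6 members were Mrpl42, Mrps21, Mrpl39, Mrpl12, Mrpl34 and Mrps36. Mrpl42 then had a log2 difference of -0.59 (limma adjusted p = 0.0346) and Mrpl39 of -0.32 (limma adjusted p = 0.0219). No cytosolic member was called without that library.

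Mrps18b (ENSMUSG00000024436), a paralog of the bacterial S18 homologue Mrps18c that occupies another site of the 28S subunit, differed in the other direction. It had 1542, 1407 and 1866 normalized counts in Arhgef11Sglt2 libraries, against 1178, 1263, 1361, 1056 and 1148 in Sglt2Cre libraries. All Arhgef11Sglt2 libraries were above all Sglt2Cre libraries, at a fold of 1.34 (log2 difference 0.31, SE 0.09, 95% interval 0.11 to 0.50, limma adjusted p = 0.0962). Mrps18c (fold 1.11) and the third paralog, Mrps18a of the 39S subunit (fold 0.956), overlapped between groups.

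Mrps36, the member outside the ribosome, had 1393, 1104 and 774.7 normalized counts in Arhgef11Sglt2 libraries, against 1555, 2053, 1683, 1530 and 1318 in Sglt2Cre libraries (log2 difference -0.44, SE 0.14, limma adjusted p = 0.120). Only Arhgef11Sglt2 replicate 1 overlapped the Sglt2Cre range. Mrps25 (-0.35, limma adjusted p = 0.203) and Mrpl34 (-0.30, limma adjusted p = 0.161) had the next most negative log2 differences. Without Arhgef11Sglt2 replicate 3 the log2 difference was -0.28 for Mrps36 and -0.19 for Mrpl34.

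Mrpl58, a peptidyl-tRNA hydrolase that rescues stalled ribosomes, had 1217, 1150 and 1203 normalized counts in Arhgef11Sglt2 libraries, against 1276, 1524, 1365, 1249 and 1296 in Sglt2Cre libraries (fold 0.887, limma adjusted p = 0.319). Mrpl44, which carries an RNase III-like fold, had a fold of 0.928, and Mrps12, of the decoding centre, 0.886. Mrps34 and Mrps35, specific to the mitochondrial small subunit, stood at 1.0 each, Mrps7 at 0.975, Mrps2 at 0.910, Mrpl3 at 0.928, Mrpl11 at 0.928 and Mrpl24 at 0.912. Mrps6, second in level per kb among 28S members, had 3303 ± 96.39 normalized counts in the Arhgef11Sglt2 group and 3346 ± 618.5 in the Sglt2Cre group. Mrpl14 (fold 1.09), Mrps30 (1.13), Mrpl9 (1.09) and Mrps18c completed the most positive members after Mrps18b.

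Ribosomal proteins whose names fall outside the rule were few. Fau and Rack1 of the cytosolic ribosome had folds of 1.13 and 1.04, and neither passed limma's adjusted threshold or an unadjusted p of 0.05. Of 6 further mitochondrial ribosomal proteins 5 had a negative difference, with 0 past the adjusted threshold and 1 at an unadjusted p of 0.05, Ptcd3 (fold 0.826).

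Members with and without the promoter letters printed above had medians close to each other. Cytosolic members with a sense CTTTCC near the start had a median log2 difference of 0.07 (20 genes, 1 negative), against 0.09 without it (45 genes, 5 negative). Mitochondrial members with CCGGAAG had a median of -0.08 (26 genes, 18 negative), against -0.10 without it (43 genes, 36 negative). All 12 mitochondrial members with AAGATGGC had a negative difference, with a median of -0.12, against 42 of 57 without it, with a median of -0.08. These splits were made after the values were known and were not tested.

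Genes that build the cytosolic ribosome had a higher median difference than the genes of the proteins they assemble, which was not tested. Of 35 assembly factors 31 had a positive difference, with a median of 0.17, and 12 (34.3%) were without overlap and higher in the Arhgef11Sglt2 group, where 6.2% of all genes were. In limma 2 of 35 rose (5.71%, against 0.627% of all genes) and 0 fell. At an unadjusted p of 0.05, 15 were higher (42.9%, against 9.04% of all genes) and 0 lower. Eif6, which holds the 60S subunit apart from the 40S subunit until it is mature, rose to 4621, 3171 and 4427 normalized counts in Arhgef11Sglt2 libraries, against 2424, 2883, 2860, 2425 and 2120 in Sglt2Cre libraries. Its log2 difference was 0.58 (SE 0.12, fold 1.6, limma adjusted p = 0.0480). Gnl3, the nucleolar GTPase nucleostemin, rose to 1638, 1549 and 2301, against 1092, 926.5, 1291, 1192 and 1132 in Sglt2Cre libraries (log2 difference 0.51, SE 0.11, fold 1.62, limma adjusted p = 0.0492). Both lay close to the threshold, and of 18 alternative fits Eif6 passed in 8 and Gnl3 in 11. With 1 library left out, Eif6 passed only without Arhgef11Sglt2 replicate 2, and its limma adjusted p was 0.0534 to 0.183 without any of the others. Gnl3 passed without Arhgef11Sglt2 replicate 1 or 2, and its limma adjusted p was 0.154 without Arhgef11Sglt2 replicate 3 and 0.0739 to 0.107 without any 1 of the Sglt2Cre libraries.

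Of 16 measured genes of RNA polymerase I, which transcribes ribosomal RNA, 12 had a positive difference (median 0.10) and 0 passed limma's adjusted threshold. At an unadjusted p of 0.05, 3 were higher (18.8%, against 9.04% of all genes). Of 32 cytosolic translation factors 24 had a positive difference (median 0.11), 5 were higher at that level (15.6%) and 0 passed. The nearest was Pabpc1, the poly(A)-binding protein, itself encoded by a TOP mRNA, with 16365, 17485 and 17227 normalized counts in Arhgef11Sglt2 libraries, against 13889, 13711, 13441, 13752 and 14198 in Sglt2Cre libraries (fold 1.23, limma adjusted p = 0.0533). Of 19 genes of mTORC1 and the control of TOP mRNAs 13 had a positive difference (median 0.05) and 0 passed. At an unadjusted p of 0.05, 1 was higher (5.26%), Eif4ebp1 (fold 1.55, limma adjusted p = 0.136).

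On the mitochondrial side, 14 of 15 measured translation factors had a negative difference, with a median of -0.16. In limma 1 of 15 fell (6.67%, against 1.59% of all genes) and 0 rose. Without overlap and lower were 7 (46.7%, against 8.14% of all genes). Gfm1, the mitochondrial elongation factor that moves tRNAs after each peptide bond, fell to 3430, 3710 and 3265 normalized counts in Arhgef11Sglt2 libraries, against 4423, 5243, 4859, 4956 and 4588 in Sglt2Cre libraries. The groups were well apart, at a log2 difference of -0.42 (SE 0.07, 95% interval -0.58 to -0.26, fold 0.721, limma adjusted p = 0.0253), and the call held in 13 of 18 alternative fits. The limma adjusted p was 0.0981 without Arhgef11Sglt2 replicate 3, and 0.0653, 0.0798 and 0.0563 without Sglt2Cre replicates 3, 4 and 5. Guf1, another GTPase of this ribosome, had a fold of 0.725 (limma adjusted p = 0.0536).

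Of 17 mitochondrial aminoacyl-tRNA synthetases 16 had a negative difference (median -0.15) and 0 passed limma's adjusted threshold. At an unadjusted p of 0.05, 6 were lower (35.3%, against 12.1% of all genes). Cars2 had the smallest p (fold 0.773, limma adjusted p = 0.0668). Of 23 mitochondrial ribosome assembly factors 14 were negative (median -0.02) and 0 passed. At an unadjusted p of 0.05, 1 was higher (4.35%, against 9.04% of all genes) and 3 lower (13.0%). Of 10 genes that copy and transcribe the mitochondrial genome 7 were negative (median -0.04), 0 passed and 0 reached an unadjusted p of 0.05. The 13 mRNAs that the mitochondrial ribosome translates had a median of -0.09, with 0 passing and 1 lower (7.69%) at an unadjusted p of 0.05. They took 10.2%, 11.9% and 13.6% of normalized counts in Arhgef11Sglt2 libraries, against 13.2%, 11.1%, 12%, 12% and 12.3% in Sglt2Cre libraries, and the groups overlapped.

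Among 11 regulators of mitochondrial biogenesis 1 rose (9.09%, against 0.627% of all genes) and 0 fell in limma. Myc, a transcription factor known for driving genes of ribosome assembly, rose to 1166, 923.5 and 1827 normalized counts in Arhgef11Sglt2 libraries, against 670.4, 358.4, 618.9, 597.7 and 453.5 in Sglt2Cre libraries. The groups did not overlap (log2 difference 0.81, SE 0.16, fold 2.42, limma adjusted p = 0.0417), and the call held in 11 of 18 alternative fits. The limma adjusted p was 0.118 without Arhgef11Sglt2 replicate 3, at a log2 difference of 0.61, and 0.0569 to 0.0929 without any 1 of the Sglt2Cre libraries. The nuclear receptor genes Esrra (fold 0.770, limma adjusted p = 0.0829) and Esrrg (fold 0.753, limma adjusted p = 0.0915), which regulate respiratory genes, did not pass.

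**Figure D5:**
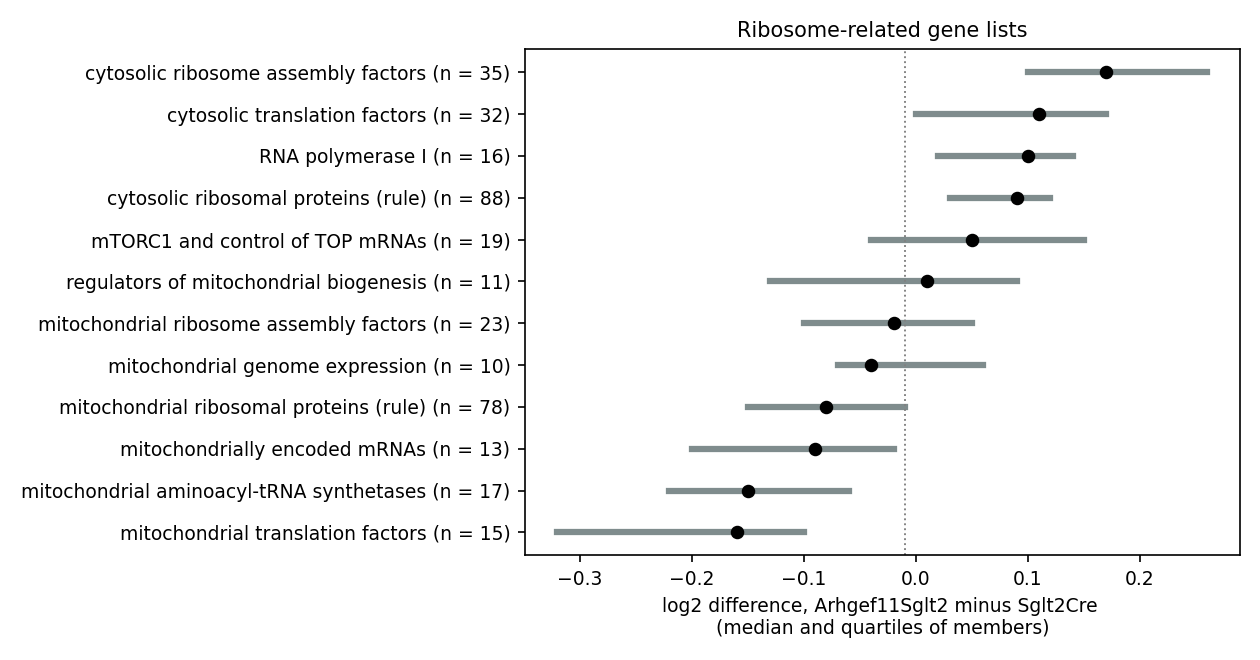
Median (points) and quartiles (bars) of the log2 difference between Arhgef11Sglt2 and Sglt2Cre libraries for the ribosomal protein sets and related gene lists, with the number of genes measured. The dotted line is the median of all listed genes (-0.01). Cytosolic lists lie to the right of it, up to 0.17 for assembly factors, and mitochondrial translation factors and synthetases to the left, at -0.16 and -0.15.

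Markers of kidney cell types differed between the same groups. Of 7 early proximal tubule markers 2 fell in limma and 0 rose, where 1.59% of all genes fell and 0.627% rose. The summed counts of these markers were 250122 to 397337 in Arhgef11Sglt2 libraries and 415345 to 461364 in Sglt2Cre libraries. Their mean log2 deviation from the Sglt2Cre mean was -0.82, 0.03 and -0.73 in Arhgef11Sglt2 replicates 1 to 3. It was -0.07 to 0.10 in Sglt2Cre libraries, so Arhgef11Sglt2 replicate 2 lay within their range. Of 6 late proximal tubule markers 4 fell, with sums of 19807 to 28550 in Arhgef11Sglt2 libraries and 36483 to 87829 in Sglt2Cre libraries. Of 5 injured tubule markers 2 rose, with sums of 12167 to 33509 in Arhgef11Sglt2 libraries and 5255 to 9137 in Sglt2Cre libraries. Of 5 thick ascending limb markers 1 fell, with sums of 240659 to 305738 in Arhgef11Sglt2 libraries and 311730 to 357377 in Sglt2Cre libraries. Of 6 B and plasma cell markers 2 fell, and of 3 measured neutrophil markers 1 rose. Groups did not overlap for 3 early and 4 late proximal tubule, 3 thick ascending limb and 2 B and plasma cell markers, all lower in the Arhgef11Sglt2 group. Nor did they overlap for 3 injured tubule markers and 1 neutrophil marker, all higher. Of all genes, 8.14% were without overlap and lower and 6.2% without overlap and higher. The median log2 difference was -0.50 for the early and -1.21 for the late proximal tubule list. It was -0.54 for the thick ascending limb list and 0.88 for the injured tubule list. Without Arhgef11Sglt2 replicate 3 or without Sglt2Cre replicate 4, 0 markers of these lists passed, in fits that called 45 and 24 genes in all. Early proximal tubule and thick ascending limb calls were 0 without any 1 of the Sglt2Cre libraries, in fits that called 24 to 284 genes. Without Sglt2Cre replicate 1, 2, 3 or 5, late proximal tubule calls numbered 2 to 4 and injured tubule calls 1. No marker of these lists was at 0 in all libraries. The other marker lists were distal convoluted tubule, collecting duct, intercalated cell, podocyte, endothelium, fibroblast, macrophage, T cell, red cell and proliferating cell. In those lists 0 passed the adjusted threshold, and 3 markers were lower at an unadjusted p of 0.05, where 12.1% of all genes were. The part of a changed cell makeup in the ribosomal protein values was not tested.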

How the data were processed

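Poly(A) libraries were read as paired ends. Quantification with Salmon 1.10.0 against GRCm39 and the use of DESeq2 are named in the submitters' processing notes. Of the DESeq2 version, the annotation and the gene filter, each is not given in the sources used here. Values deposited by the authors are log2 and variance-stabilized, for 15948 genes, as their shared minimum of 8.1275 (a count of 0) shows. Symbols matched 15902 IDs (99.71%).

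That transformation was inverted to give normalized counts. Folds are ratios of group means of these. A level per kb divides by the length of the gene's principal transcript in GENCODE M21, the longest where several are listed. These lengths were 345 to 5179 bases in the cytosolic and 418 to 7300 bases in the mitochondrial set. Levels and rankings per kb depend on that choice. Tests, log2 differences and SEs are on the deposited scale, which compresses differences of low genes, and come from limma 3.58.1 in R 4.3.3 (group as the only term, 8 libraries, all genes, variance trend, Benjamini-Hochberg adjustment). The procedure was tested on simulated data. Normalized counts summed to between 43.04 and 45.66 (in units of 1e+06) in Arhgef11Sglt2 and between 45.18 and 46.68 in Sglt2Cre libraries. Depth was estimated from the spacing of low values, and read counts were not recovered, so no counting interval is given.

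Named were, in each set, the 5 largest differences in each direction among members with a mean of at least 100 normalized counts, the 3 most abundant, a panel, and in each list the called genes or those of smallest p. Some genes that this rule names are not reported here. Members named for groups without overlap were chosen after their values were seen. Members and lists were chosen with earlier results of these data known. Alternatives covered scaling, log scale with pseudocounts of 1 and 10, a filter, blocks, left-out libraries, variance models, the threshold and membership. Adding the -ps rows was chosen after seeing the data. Of the 166 members 5 averaged under 100 normalized counts (Rps27, Rpl3l, Rps3a2, Rps3a3 and Mrpl23), and none was filtered out. Reads of near-identical copies cannot be assigned with certainty, so those genes are uncertain.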

Additional observations from a re-analysis of the deposited data

Results flagged for a closer look

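Of 53 sets of Sglt2Cre values tested for 1 library far from the other 4, 8 were flagged. Chance flags about 1 in 20 when such sets are independent. Ribosomal protein genes varied together between libraries, so the 8 flags cannot be weighed against that rate. Sglt2Cre replicate 2 stood far above the other Sglt2Cre libraries in 7 genes. Rpsa had 24528 normalized counts there (17465 to 18130 in the others), Rplp0 30360 (23179 to 25231), Rps19 10073 (6319 to 7333), Rplp2 7958 (5722 to 6235) and Rpl36a 3604 (2622 to 2904). Of mitochondrial members, Mrpl42 had 4676 (3265 to 3559) and Mrps21 2916 (2153 to 2372) in that library. Rps27 had 170.1 normalized counts in Sglt2Cre replicate 4 and 20.00 to 40.38 in the others.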

How the results depend on the processing

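No cytosolic member was called under any alternative. Mitochondrial calls numbered 0 to 6 with 1 library left out (6 without Arhgef11Sglt2 replicate 1), 2 with a block for the range of library numbers (Mrpl42 and Mrps21), 5 with sample weights, 6 at an adjusted p of 0.1, and 0 otherwise. Over all genes, calls numbered 354, but 24 to 1334 with 1 library left out (1334 without Arhgef11Sglt2 replicate 1, 45 without replicate 3, and 187, 135, 24 and 76 without Sglt2Cre replicates 1, 3, 4 and 5) and 874 with sample weights. Scaled to equal totals, 149 genes were higher and 178 lower, against 100 and 254. The cause was not tested.

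With 1 library left out, the cytosolic median was 0.050 to 0.144, the mitochondrial median -0.125 to -0.060, their difference 0.120 to 0.223, and the fold of the ratio of sums 1.14 to 1.21. The folds of the shares were 1.06 to 1.14 (cytosolic) and 0.891 to 0.965 (mitochondrial). Log scales with pseudocounts moved the mitochondrial median to -0.12.

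With the replicate number as a block, the cytosolic median was 0.010, the mitochondrial median -0.132, and 0 genes in all were called. Correlations between same-numbered libraries were -0.18, -0.09 and -0.01, and none correlated best with its own number. The best correlations with any Sglt2Cre library were low as well, 0.11, 0.09 and 0.11. These values therefore cannot show whether same-numbered samples share more than a number.

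Of 949 comparisons of 50 genes chosen for naming with an alternative, 885 kept direction and side of the threshold, 14 newly passed it and 50 changed sign, in genes that did not pass. Changes of sign on the block were Rplp2 (-0.033), Rpl36a (-0.042), Rplp1 (-0.027), Rpl22 (-0.041), Rpl22l1 (-0.016), Rpl10 (-0.061), Mrps34 (-0.056) and Mrps35 (-0.036). Scaled to equal totals they were Rpl39 (0.00095), Rpl13 (0.017), Rpsa (0.018), Rps29 (0.023), Rpl36al (0.022), Mrps7 (0.0031) and Mrps6 (0.031). With sample weights they were Mrps6 (0.015) and Mrps35 (-0.0039). Mrps34 turned to -0.0003 and -0.00026 with pseudocounts of 1 and 10, and to -8.8e-05 on the block for library numbers. With 1 library left out the ranges were -0.122 to 0.098 (Rpl39), -0.101 to 0.090 (Rpl13), -0.049 to 0.070 (Rpsa), -0.051 to 0.056 (Rps29), -0.037 to 0.020 (Rpl36al), -0.014 to 0.096 (Rplp2), -0.018 to 0.095 (Rpl36a), -0.0014 to 0.146 (Rpl22), -0.008 to 0.108 (Rpl22l1), -0.050 to 0.198 (Rpl10), -0.064 to 0.00049 (Mrps7), -0.056 to 0.075 (Mrps6), -0.072 to 0.077 (Mrps34) and -0.056 to 0.046 (Mrps35).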
